A study of Homo sapiens with 12 samples.

Results

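The genes described here build, shorten, bundle and pull on actin filaments, and 50 of them were chosen by symbol as actin assembly and myosin contractility genes. All 50 had an Ensembl identifier among the 63568 in the count table. They were placed by known role into 9 groups, which were 2 actin isoforms, 8 subunits of the Arp2/3 complex, 4 nucleation promoting factors, 3 formins, 8 genes of filament turnover and capping with their kinases and phosphatase, 10 tropomyosins, calponins and relatives, 9 genes of myosin II and its kinases, 3 ERM proteins, and 3 genes of bundling and of the Ena/VASP family. RNA was sequenced from MDA-MB-231/GFP cells, an established triple negative breast cancer line that carries green fluorescent protein and is otherwise labelled wild type, grown inside the basement membrane gel Matrigel. There were 12 samples, 2 in each of 6 conditions. The untreated cells were taken on day 2 (C1) or on day 4 (C2), and the treated cells were taken on day 4 after 0.0005, 0.005, 0.05 or 0.5 µM Paclitaxel, given on day 2 by the labels. All samples came out of the gel by the same digestion with collagenase and dispase, and all are from 1 cell line. The study asked whether cells that sink to the bottom of such a gel move there actively, and used Paclitaxel, which binds microtubules, to stop movement.

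Actin filaments grow at one end and shrink at the other, and a cell moves by pushing its edge forward with new filaments and pulling its rear with myosin. The Arp2/3 complex, switched on by nucleation promoting factors, starts branched filaments, while formins start and lengthen straight ones. Tropomyosins, caldesmon and calponins lie along filaments and set how myosin II can act on them, myosin II contracts them, and the ERM proteins tie them to the cell membrane.

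The libraries held 38380629 to 79169121 counts. Levels are given as CPM, counts scaled to library size with TMM factors. A gene was called changed where edgeR's quasi-likelihood test gave an adjusted p under 0.05 over all 25249 genes tested. Markers of the line were at high levels (VIM was at 797 to 1366 CPM), ESR1 and PGR stayed at or below 0.460 CPM and 0.0867 CPM while ERBB2 was at 26.6 to 52.4 CPM, and the 8 fibroblast markers summed to 8.95 to 19.8 CPM. Before any result, the 2 C1 samples must be set apart. Between them, 9 of 49 tested genes differed over 2-fold, against 0 between the samples of any other condition. The median absolute difference on the log2 scale was 0.58 in C1 and 0.05 to 0.17 elsewhere. The gap was not particular to the list, since 8.86% of 10170 genes of at least 8 CPM differed over 2-fold in C1. Their median absolute difference was 0.42 there. Among the 9 genes of the list, CNN1 rested on 21 and 2 counts. All 9 read higher in C1 replicate 1, and their exon GC content was 53.4% to 65.9%. Of the other genes in that range of GC content, TPM2 alone did not read higher there. MYH9 read 1582 CPM there and 549.9 CPM in replicate 2, and ACTB 3658 and 1530 CPM. The light chain MYL6 ran the other way, at 434.5 and 828.8 CPM. Over the 49 genes the difference between the C1 samples correlated with exon GC content (Pearson's r 0.59), a description over genes that share 2 libraries, and r was 0.53 over the 10170 genes of at least 8 CPM that had a GC content in the annotation. Such a correlation was not peculiar to C1, since over the 49 genes r was 0.42 in C2, 0.45 at 0.0005 µM, -0.04 at 0.005 µM, -0.43 at 0.05 µM and 0.32 at 0.5 µM.

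**Figure D1:**
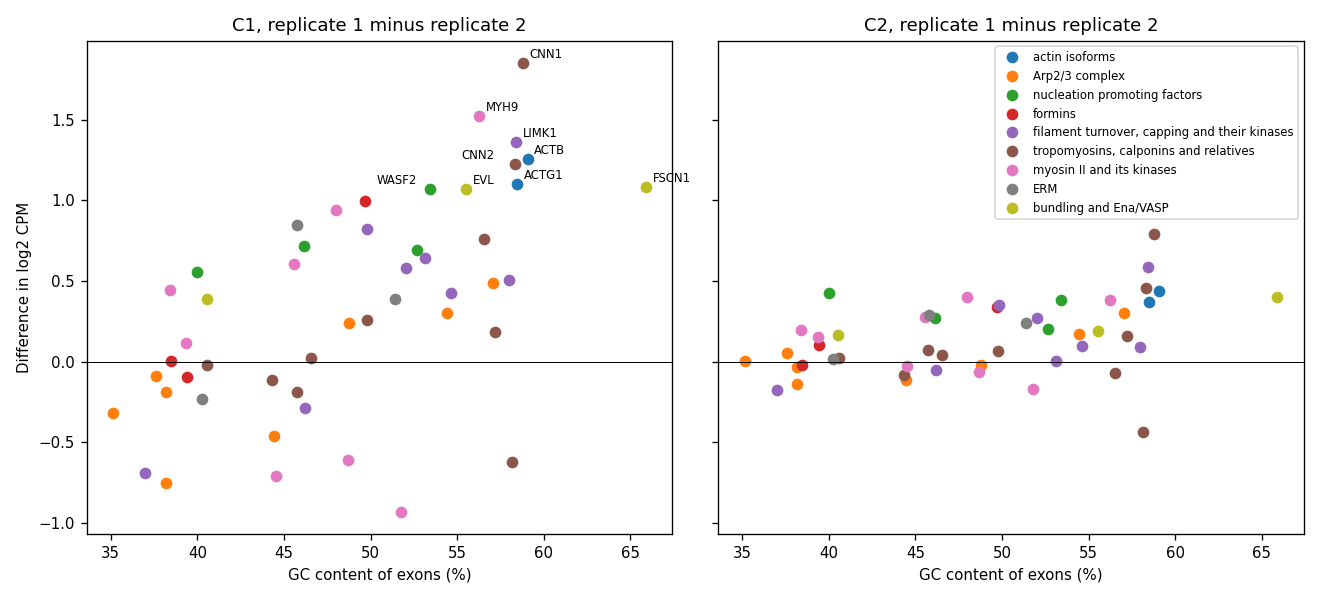
Difference in log2 CPM between replicate 1 and replicate 2 of C1 (left) and of C2 (right) against the GC content of each gene's exons in percent, 1 point for each of 49 genes, coloured by role. In C1 9 genes, MYH9 and ACTB among them, lie above 1 and MYL6 lies near -0.93, while in C2 all points lie within 1 of zero.

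Divided by the length of the longest annotated transcript, the levels spanned from the actins to genes at or near 0. ACTB and ACTG1, the cytoplasmic actins, led with means of 716 and 688 CPM per kb over the 12 samples, and their ranges overlapped. Next came PFN1 (profilin, which loads actin subunits for growth) at 573 CPM per kb, then the myosin light chains MYL12B, MYL6 and MYL12A at 373, 328 and 312 CPM per kb. Among the heavy chains, MYH9 stood at 105 CPM per kb, MYH10 at 4.70 CPM per kb, and MYH14 had no count in 10 of 12 samples, so MYH9 was the main heavy chain of these cells. The tropomyosins TPM4 and TPM3 were at 132 and 101 CPM per kb, TPM1 and TPM2 at 12.9 and 12.8, and 22.7% of the exon bases of TPM1 lie under genes of the opposite strand. Of the formins, DIAPH1 was at 35.8, DIAPH3 at 8.18 and DIAPH2 at 2.86 CPM per kb, and of the ERM genes MSN was at 143, EZR at 105 and RDX at 28.0 CPM per kb. The smooth muscle genes TAGLN and CNN1 were at 0.833 and 0.158 CPM per kb, while TAGLN2 and CNN3, their widely expressed relatives, were at 284 and 241. ACTB and ACTG1, and likewise MYL12A and MYL12B, are near-identical pairs, so with unique alignments alone their split is uncertain. Divided by the union of all annotated exons instead, ACTG1, PFN1 and ACTB led at 423, 420 and 415 CPM per kb, and EZR (98.4) stood above MSN (67.1) and TPM2 (6.33) above TPM1 (3.46), so these orders rest on the length used.

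**Figure D2:**
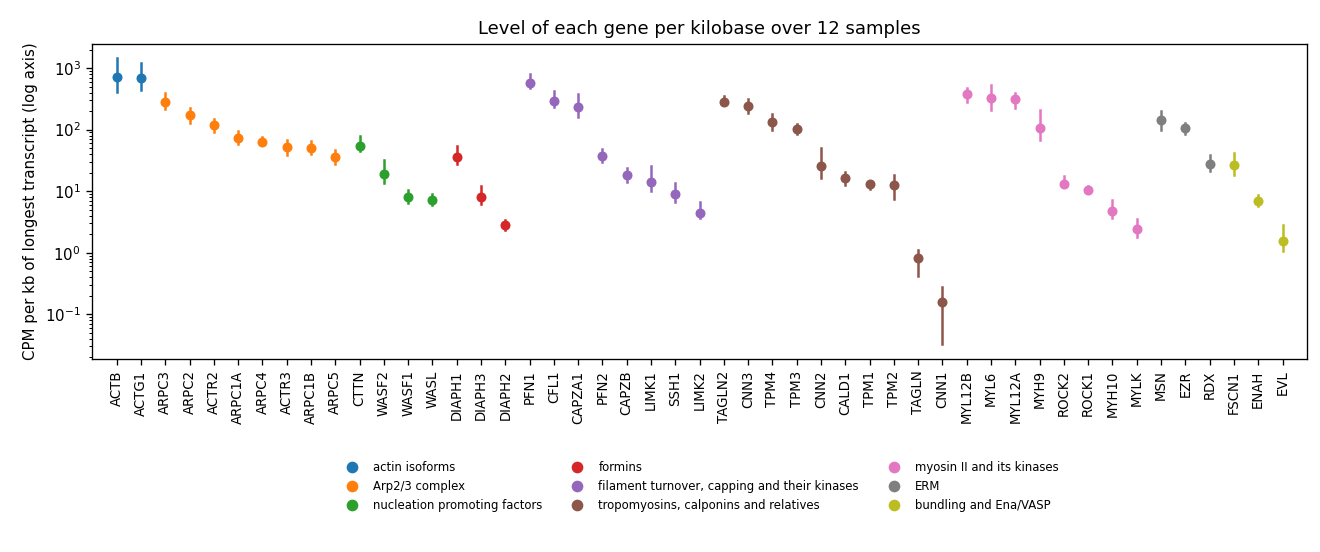
Mean level of each gene in CPM per kilobase of its longest transcript (log axis) over 12 samples, with the lowest and highest sample as a bar, for 49 genes in blocks by role; MYH14, at almost no counts, is left out. ACTB, ACTG1 and PFN1 are highest, and TAGLN and CNN1 are lowest.

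Few of these genes passed the test against the untreated samples of day 4 at any 1 dose. At 0.0005 µM, 0 of 49 genes were called by edgeR (2.34% of all genes tested were called), 0 by DESeq2, and 5 had an unadjusted p under 0.05 (10.2%, against 16.95% of all genes). At 0.005 µM only the formin DIAPH3 was called (2.04% of the 49 genes, against 3.28% of all genes). At 0.05 µM CALD1, MYH10 and RDX were called (6.12% against 8.32%), and at 0.5 µM CALD1 alone (2.04% against 6.32%). All of these were lower, and the share of all genes called lower was 0.776%, 3.23% and 1.96% at these 3 doses. The share of the list called in either direction was under that of all genes at each dose, and these counts of 1 to 3 genes say little about the list. In bulk RNA, fewer cells of a type and less RNA per cell cannot be told apart.

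From the lowest to the highest dose the list's median change relative to C2, on the log2 scale, was -0.03, -0.24, -0.16 and -0.27 over 49 genes, and 26, 42, 42 and 41 genes had a value below 0. Genes in general shifted too. Over the 11193 genes of at least 8 CPM the medians were -0.04, -0.12, -0.11 and -0.11, with 56.2%, 69.5%, 65.8% and 64.4% below 0. Over all genes tested the medians lay within 0.04 of 0. Both treated samples lay below both C2 samples for 13, 34, 23 and 34 of the 49 genes (26.5%, 69.4%, 46.9% and 69.4%), against 25.9%, 29.3%, 26.9% and 27.3% of all genes and 31.5%, 50.3%, 40.1% and 43.5% of the genes of at least 8 CPM. The 4 comparisons share the 2 C2 samples, so they are not independent of each other, and with 2 samples on each side an exact permutation test of 1 gene cannot go below 0.333.

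**Figure D3:**
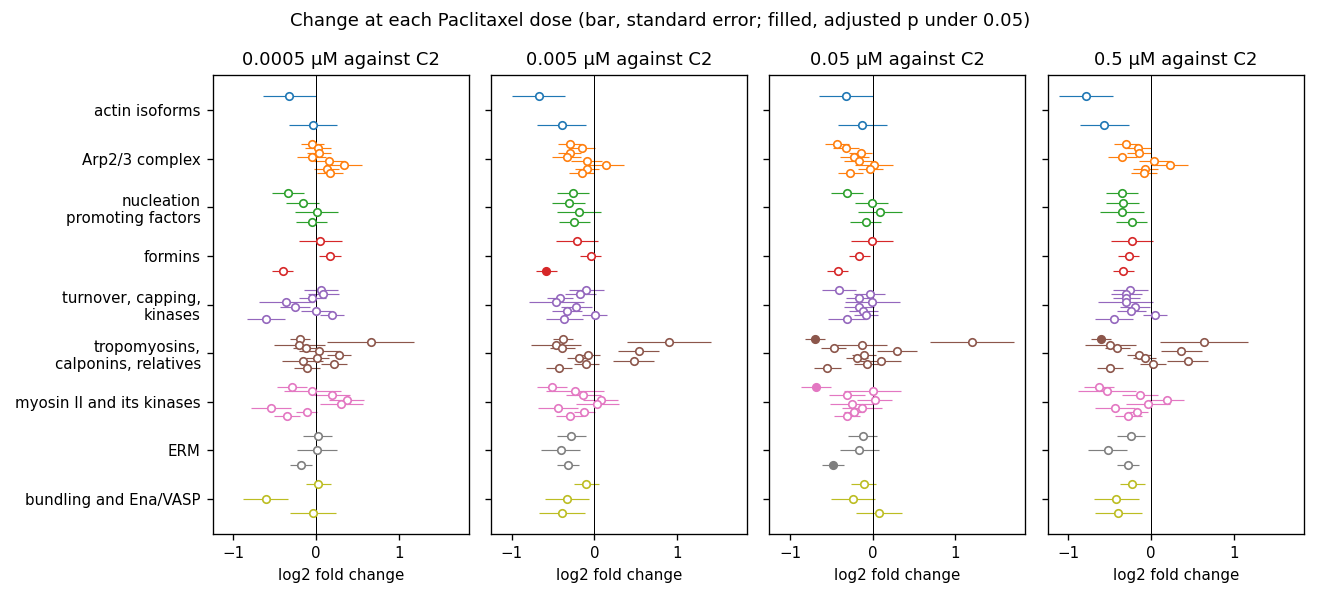
Log2 fold change of each of 49 genes at each Paclitaxel dose against C2, with its standard error as a bar, in rows by role; filled points passed an adjusted p under 0.05. The filled points are DIAPH3 at 0.005 µM, CALD1, MYH10 and RDX at 0.05 µM and CALD1 at 0.5 µM, all below 0.

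The contrast of all 8 treated with all 4 untreated samples had more samples and made more calls. Here 14 genes were lower and 1, TAGLN, was higher, which is 30.6% of the 49 genes against 24.4% of all genes tested. Called lower were 28.6% of the list, 11.3% of all genes and 21.1% of the genes of at least 8 CPM. Called higher were 13.1% of all genes, but only 439 of the 11193 genes of at least 8 CPM. The median log2 fold change was -0.23 in the list and -0.15 in the genes of at least 8 CPM. This contrast holds day 2 samples on the untreated side only, so part of the difference between days and the difference with treatment cannot be told apart in it. Without the 2 C1 samples, 6 of the 15 genes were called, namely CALD1, CTTN, DIAPH3, MYH10, ROCK2 and SSH1, all lower, where 6.42% of all genes were called lower. Without C1 replicate 1 alone 6 were called (12.2%, against 15.6% of all genes), without C2 replicate 1 alone 9 (18.4%, against 17.9%), and without any other 1 sample 12 to 18. Filtering at a mean of 1 CPM ended the calls of ACTB, ACTR2, CALD1, CNN2, CTTN, EVL, LIMK2, ROCK2 and SSH1, and testing every gene with a count ended those of CNN2, LIMK2 and ROCK2.

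**Figure D4:**
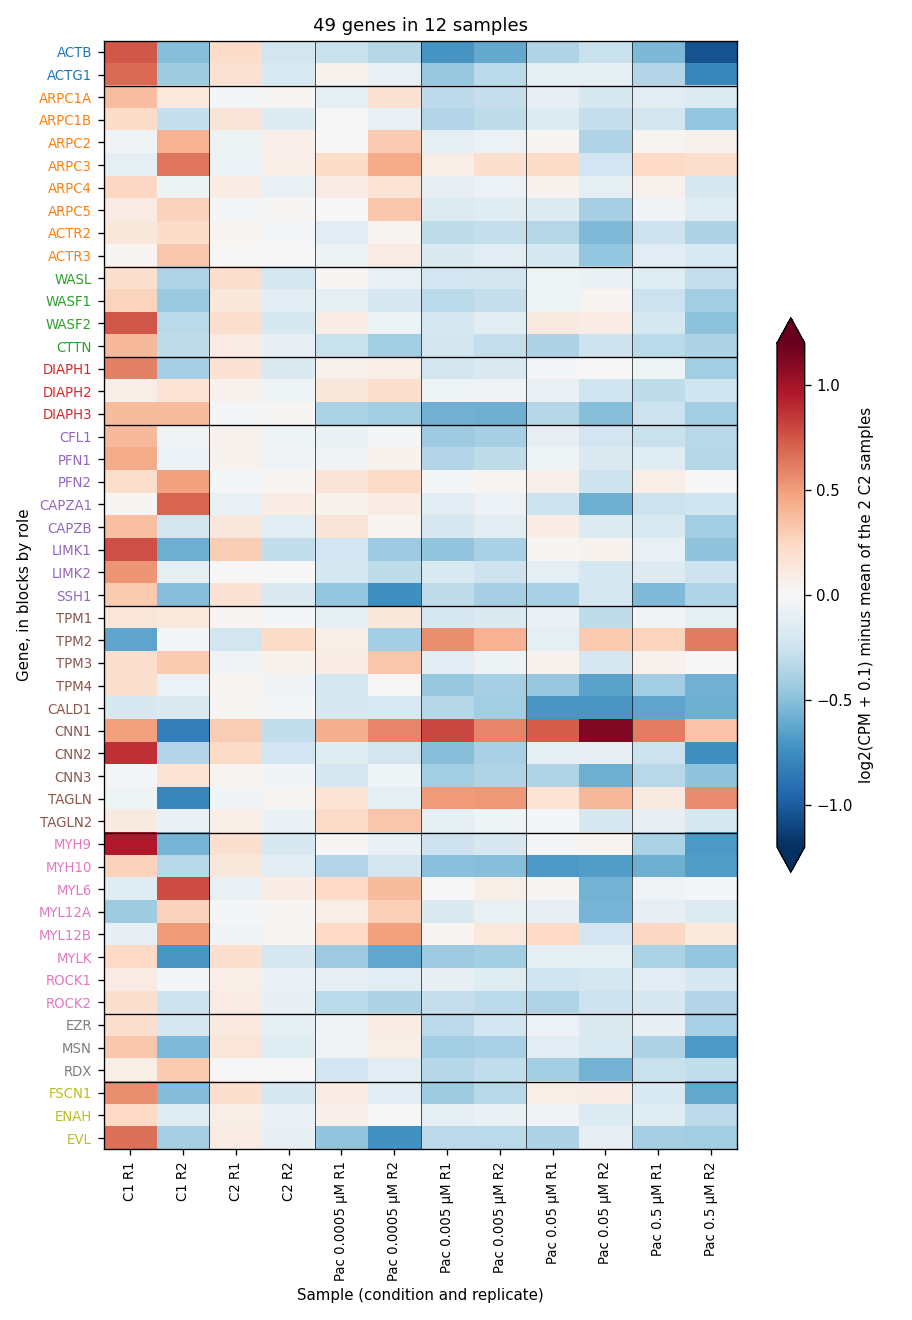
Log2(CPM + 0.1) of 49 genes in 12 samples, each minus the mean of the 2 C2 samples of that gene, in blocks by role from actin isoforms (top) to bundling and Ena/VASP (bottom); blue is lower than C2 and red higher. CALD1, MYH10, DIAPH3 and TPM4 are blue in the samples of the 3 higher doses, TAGLN and TPM2 are mostly red there, and the 2 C1 columns differ from each other most.

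The dose comparisons share 1 estimate of spread over all 6 conditions, C1 included. In a fit of the 10 day 4 samples, added after the data were seen, 4, 6, 7 and 14 of 49 genes were called from the lowest to the highest dose, all lower, where 4.56%, 6.21%, 9.16% and 10.8% of all genes were called lower. These were 8.16%, 12.2%, 14.3% and 28.6% of the list, above the share of all genes called lower at each dose. In either direction 10.3%, 12.7%, 19.2% and 20.04% of all genes were called. The share among genes of at least 8 CPM was not computed for this fit. In the fit of all conditions it was above that of all genes, at 1.54%, 5.91% and 3.50% called lower at the 3 higher doses. No excess of the list is therefore read from these shares. The 14 at 0.5 µM were ACTB, ACTG1, CALD1, CNN2, CNN3, CTTN, DIAPH3, MSN, MYH10, MYH9, MYLK, SSH1, TPM4 and WASF1. DIAPH3 was called at all 4 doses in that fit, and CALD1 and MYH10 at the 3 higher ones. Against this, leaving out either C2 sample took the calls in the fit of all conditions to 0 at 0.005 and 0.5 µM, and at 0.05 µM to 0 without replicate 1 and 1 without replicate 2.

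Promoters of the list were searched for the CArG box, the site that serum response factor (SRF) binds and that many cytoskeletal genes are known to carry. RefSeq promoter sequences on GRCh38.p14, from 250 bases before to 50 bases after a gene's start, were found for 43 of the 50 genes, as 67 windows, and not for ACTB, ARPC1B, WASF2, CTTN, PFN2, TAGLN and FSCN1. The box, which reads the same on both strands, stood in 5 of 67 windows (7.46%) and in 1.29% of 35116 windows of the same length over all genes. The window of MYLK lies far inside its gene, 263784 bases from the 5′ end of a gene of 274284 bases, so it is not the promoter of the long kinase transcript and is not printed. The 250 bases before the start are printed for the other 4 genes, whose windows stand at the 5′ end of the gene, because their levels are given below, with the box in capitals, 5′ to 3′ on the strand of the gene. ACTG1 is at chr17:81512800-81513049 (-), CNN2 at chr19:1026358-1026607 (+), TPM4 at chr19:16067288-16067537 (+) and ROCK2 at chr2:11345438-11345687 (-). The first base of the box lay 94, 89, 173 and 73 bases before the start.
ACTG1: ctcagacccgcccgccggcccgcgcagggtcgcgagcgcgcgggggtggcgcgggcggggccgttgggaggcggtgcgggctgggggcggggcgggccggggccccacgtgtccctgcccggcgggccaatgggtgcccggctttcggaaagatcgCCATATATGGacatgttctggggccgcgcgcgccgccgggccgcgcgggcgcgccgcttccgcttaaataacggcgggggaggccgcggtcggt
CNN2: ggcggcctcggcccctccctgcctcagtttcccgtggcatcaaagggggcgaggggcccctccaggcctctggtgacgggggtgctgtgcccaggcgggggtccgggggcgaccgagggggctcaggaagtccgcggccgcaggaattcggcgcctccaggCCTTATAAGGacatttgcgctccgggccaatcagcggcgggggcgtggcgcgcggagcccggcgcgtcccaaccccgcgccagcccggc
TPM4: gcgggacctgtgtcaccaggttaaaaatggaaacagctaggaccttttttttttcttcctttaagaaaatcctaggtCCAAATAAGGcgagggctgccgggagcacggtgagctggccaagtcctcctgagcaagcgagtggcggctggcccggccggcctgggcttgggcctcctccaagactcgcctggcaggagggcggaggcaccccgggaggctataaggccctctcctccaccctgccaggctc
ROCK2: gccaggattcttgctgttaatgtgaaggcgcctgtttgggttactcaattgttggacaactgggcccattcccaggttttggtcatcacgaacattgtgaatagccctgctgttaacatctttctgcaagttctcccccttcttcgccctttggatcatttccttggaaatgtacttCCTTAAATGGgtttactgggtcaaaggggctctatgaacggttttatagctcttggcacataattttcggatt
In the contrast of treated with untreated samples all 5 genes had a log2 fold change below 0, at -0.38 for ACTG1, -0.51 for CNN2, -0.42 for TPM4, -0.30 for MYLK and -0.30 for ROCK2, and CNN2, TPM4 and ROCK2 were called. Of the whole list, 44 of 49 genes (89.8%) lay below 0 in this contrast, and 73.9% of the genes of at least 8 CPM did. Nothing about the box is therefore read from this. A match is a string of letters and was not tested as a binding site.

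ACTB, a cytoplasmic actin, read 3658 and 1530 CPM in the C1 samples and 2534 and 1874 CPM in the C2 samples. With Paclitaxel it read 1811 and 1714 CPM at 0.0005 µM, 1333 and 1427 at 0.005 µM, 1701 and 1815 at 0.05 µM, and 1500 and 1055 at 0.5 µM. Every treated sample lay below both C2 samples, and C1 replicate 2 lay among the treated ones. ACTB was lower in treated than in untreated samples by a log2 fold change of -0.64 ± 0.19 (SE, adjusted p = 0.024, 8 against 4 samples), a call that was lost without C1 replicate 1 (adjusted p = 0.17) or C2 replicate 1. At single doses its changes of -0.32 to -0.79 were not called in the fit of all conditions, and in that of day 4 samples it was called at 0.005 µM (-0.66, adjusted p = 0.029) and 0.5 µM (-0.79, adjusted p = 0.0075). ACTG1, the other cytoplasmic actin, read 1078 to 1913 CPM in treated and 1382 to 2972 CPM in untreated samples, with a log2 fold change of -0.38 that was not called.

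The Arp2/3 complex held no gene called at a single dose in the fit of all conditions, and the medians of its 8 subunits against C2 were 0.08, -0.15, -0.19 and -0.12. ARPC3, its most abundant subunit per kb of the longest transcript but below ACTR2 per kb of exon union (102 against 110 CPM per kb), read 253.7 and 427.9 CPM in C1, 260.8 and 286.8 CPM in C2, and 234.0 to 372.6 CPM in the treated samples. The treated range covers both C2 samples. ACTR2, one of the 2 actin-related subunits that form the new filament's base, was the only subunit called in treated against untreated samples. It read 537.2 and 572.5 CPM in C1, 499.6 and 480.9 CPM in C2, and from 339.8 to 502.7 CPM with a median of 399.0 in the treated samples, and its log2 fold change was -0.36 ± 0.11 (SE, adjusted p = 0.025). Only the sample of 0.0005 µM replicate 2 overlapped the untreated ones. Without either C1 sample the call was lost (adjusted p of 0.058 and 0.060), and likewise with GC and length offsets (0.051). In the fit of day 4 samples ACTR2 was called at 0.05 µM (-0.41, adjusted p = 0.029). ARPC1A shares 58.6% of its exon bases with another annotated gene of the same strand, so its counts are uncertain.

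Among the nucleation promoting factors, CTTN (cortactin, which steadies Arp2/3 branches) was lower in treated samples. It read 261.0 and 161.4 CPM in C1, 213.7 and 185.6 CPM in C2, and 149.0 to 171.2 CPM with a median of 161.3 over 8 treated samples. Both C2 samples lay above every treated one, and C1 replicate 2 lay among them. The log2 fold change against untreated samples was -0.36 ± 0.11 (SE, adjusted p = 0.026), lost without C1 replicate 1 (adjusted p = 0.14) or C2 replicate 1, or with the filter at a mean of 1 CPM (0.076). WASL, WASF1 and WASF2, which switch on the Arp2/3 complex, had log2 fold changes of -0.12 to -0.26 and were not called in that contrast.

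DIAPH3, a formin that lengthens straight filaments and also takes part in cell division, had the smallest adjusted p of the list. It read 57.6 and 57.5 CPM in C1 and 43.9 and 44.6 CPM in C2. In the treated samples it read 33.9 and 33.1 CPM at 0.0005 µM, 29.6 and 29.4 at 0.005 µM, 34.8 and 31.1 at 0.05 µM, and 36.9 and 33.1 at 0.5 µM. All 8 treated samples lay below all 4 untreated ones, which held for 5 of the 49 genes (10.2%; DIAPH3, LIMK2, CNN3, ROCK1 and RDX), for 5.77% of all genes and for 10.9% of the genes of at least 8 CPM. Treated samples were lower by a log2 fold change of -0.64 ± 0.10 (SE, adjusted p = 0.00028), and the call was kept in all 20 alternatives run, among them the 12 that left out 1 sample. Against C2 alone the changes were -0.40, -0.58, -0.43 and -0.34 from the lowest to the highest dose, with the second called in the fit of all conditions (adjusted p = 0.029, lost without any 1 of 7 samples, at up to 0.24). There was no order by dose, since the slope per 10-fold step was 0.03 and not called. Its level in C2 was also lower than in C1, by -0.38 ± 0.13 (adjusted p = 0.36). A list of 12 genes of G2 and M phase had summed levels of 3244 to 3276 CPM in C1, 2231 to 2277 CPM in C2 and 1689 to 2456 CPM in treated samples. All 12 had a log2 fold change below 0 from day 2 to day 4, with a median of -0.57. In treated against untreated samples 5 were called lower, beside 11.3% of all genes and 21.1% of those of at least 8 CPM. At 0.5 µM, however, only 4 of the 12 lay below 0 against C2, with a median of 0.11, and CCNB1, KIF20A and AURKA were called higher and TOP2A lower there, and by slope 4 of the 12 were called higher. The part of this list in the DIAPH3 result was not tested.

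DIAPH2, a formin known for its part in ovarian function, instead moved with dose. It read 29.3 and 30.8 CPM at 0.0005 µM, 25.8 and 25.9 at 0.005 µM, 25.2 and 22.6 at 0.05 µM, and 21.6 and 22.6 at 0.5 µM, where C1 held 28.1 and 30.0 and C2 held 27.7 and 25.8 CPM. Both samples of the lowest dose thus lay above C2 and both of the highest below it. The slope over the 8 treated samples was -0.14 ± 0.03 on the log2 scale per 10-fold step (SE, adjusted p = 0.035), and 4.08% of the 49 genes (DIAPH2 and CALD1) against 3.06% of all genes were called by slope. That call was lost without either sample of 0.0005 µM or of 0.5 µM or without replicate 2 of 0.005 µM, at an adjusted p of 0.072 to 0.22. With a replicate block the slope of DIAPH2 was not called either. DIAPH1, the most abundant formin, read 322.4 and 161.4 CPM in C1, 238.6 and 188.7 CPM in C2 and 158.6 to 223.5 CPM in treated samples, and its log2 fold change of -0.19 was not called.

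All 8 genes of filament turnover and capping had a log2 fold change below 0 in treated against untreated samples, with a median of -0.33, beside 73.9% of the genes of at least 8 CPM below 0, and LIMK2 and SSH1 were called, a share near the 24.4% of all genes. LIMK2 is a kinase that shuts off cofilin and SSH1 (slingshot) the phosphatase that switches cofilin on again, so the 2 called genes have opposite known actions on it. LIMK2 read 24.5 and 15.6 CPM in C1, 17.0 and 16.9 CPM in C2, and 13.7 to 15.6 CPM in the treated samples. The highest treated sample lay only just under the lowest untreated one, at 15.63 CPM in both to 4 digits, and the log2 fold change was -0.34 ± 0.11 (SE, adjusted p = 0.030, lost at 0.18 without C1 replicate 1 and also without 0.0005 µM replicate 2 or 0.005 µM replicate 2, and under either other filter, at 0.062 and 0.092). SSH1 read 177.0 and 100.1 CPM in C1, 161.4 and 126.4 CPM in C2, and 85.5 to 123.2 CPM with a median of 108.6 in treated samples. Its log2 fold change was -0.40 ± 0.13 (SE, adjusted p = 0.034, lost without C1 replicate 1, C2 replicate 1 or 0.0005 µM replicate 2, at 0.062 to 0.16), and the lowest level was at 0.0005 µM, not at the highest dose. PFN1 read 956.1 and 671.8 CPM in C1, 726.9 and 682.6 in C2, and 551.6 to 723.9 CPM in treated samples, with a log2 fold change of -0.27 (adjusted p = 0.11). CFL1, cofilin itself, had -0.32 (adjusted p = 0.052), and 19.0% of its exon bases lie under genes of the opposite strand.

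The tropomyosins, calponins and relatives held 1 of the 2 genes called by slope over the doses and also the 1 gene called higher. CALD1 (caldesmon, which binds actin, myosin and tropomyosin and holds back contraction) read 89.95 and 91.1 CPM in C1 and 103.4 and 101.7 CPM in C2. In treated samples it read 89.5 and 90.1 CPM at 0.0005 µM, 80.6 and 76.6 at 0.005 µM, 63.1 and 63.3 at 0.05 µM, and 66.2 and 68.4 at 0.5 µM. The 2 samples of each condition lay close together, the lowest dose stood at the C1 level, and the 3 higher doses lay below every untreated sample. Against C2 its log2 fold change was -0.70 ± 0.12 at 0.05 µM (SE, adjusted p = 0.0054) and -0.61 ± 0.12 at 0.5 µM (adjusted p = 0.014), while -0.19 and -0.38 at the 2 lower doses were not called in the fit of all conditions. In that of day 4 samples the change at 0.005 µM was called (-0.37, adjusted p = 0.022). The slope over treated samples was -0.15 ± 0.04 per 10-fold step (adjusted p = 0.042), a call lost with a replicate block. Treated against untreated samples gave -0.37 ± 0.11 (adjusted p = 0.024, 0.060 with GC and length offsets). The call at 0.05 µM was lost without C2 replicate 1 alone (adjusted p = 0.065), and that at 0.5 µM without either C2 sample or either sample of that dose (up to 0.14). The slope lost its call without any 1 of 7 of the 8 treated samples (up to 0.27), and the treated against untreated call without either C2 sample (up to 0.072).

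TPM4, a tropomyosin of non-muscle cells, followed CALD1 in direction. It read 863.5 and 721.3 CPM in C1, 775.3 and 740.2 CPM in C2, 653.5 and 752.7 CPM at 0.0005 µM, 552.4 and 573.1 at 0.005 µM, 551.1 and 485.2 at 0.05 µM, and 567.6 and 506.4 at 0.5 µM. All 6 samples of the 3 higher doses lay below all untreated samples, and 1 of the lowest dose did not. Treated samples were lower by a log2 fold change of -0.42 ± 0.12 (SE, adjusted p = 0.018, 0.065 without C1 replicate 1 and 0.084 with GC and length offsets). The adjusted p was 0.054 at 0.05 µM and 0.087 at 0.5 µM in the fit of all conditions. In that of day 4 samples TPM4 was called at both doses (0.012 and 0.016).

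CNN3 and CNN2 are the calponins of non-muscle cells. CNN3 read 542.7 and 617.3 CPM in C1, 566.1 and 539.3 CPM in C2, and 367.1 to 532.2 CPM in treated samples, all 8 below all 4 untreated ones, at a log2 fold change of -0.38 ± 0.11 (SE, adjusted p = 0.017). On day 4 samples alone that call was lost, at -0.33 (adjusted p = 0.089). In that fit CNN3 was called at 0.05 µM and 0.5 µM (adjusted p of 0.021 and 0.035). CNN2 read 114.5 and 48.9 CPM in C1 and 73.0 and 53.2 CPM in C2, against 37.3 to 58.1 CPM in treated samples. Its groups overlapped, and its log2 fold change of -0.51 ± 0.18 (SE, adjusted p = 0.045) fell to -0.21 without C1 replicate 1, with an adjusted p of 0.34, and was not called without 6 other samples taken 1 at a time.

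TAGLN (transgelin, an actin binding gene of smooth muscle) was the only gene called higher, at 1.58 to 4.21 CPM throughout. It read 2.697 and 1.58 CPM in C1, 2.73 and 2.87 CPM in C2, 3.15 and 2.58 at 0.0005 µM, 4.05 and 4.07 at 0.005 µM, 3.16 and 3.72 at 0.05 µM, and 3.02 and 4.21 at 0.5 µM. All 6 samples of the 3 higher doses lay above all 4 untreated ones. The log2 fold change was 0.49 ± 0.17 (SE, adjusted p = 0.046), lost without any 1 of 10 samples (up to 0.10). It was also lost with a replicate block and on day 4 samples alone, at 0.33 (adjusted p = 0.25). Reads cannot be told apart from those of PCSK7 on the opposite strand, which covers 34.1% of its exon bases, since the counting was not stated to use strand, and 38.1% lie under another gene of its own strand. TPM2, a tropomyosin best known from muscle, read 13.8 to 28.4 CPM in treated and 11.8 to 21.3 CPM in untreated samples at 0.39 (adjusted p = 0.13). CNN1 stayed at 0.0597 to 0.509 CPM, and the smooth muscle factor MYOCD had almost no counts. Of 7 smooth muscle markers 5 were tested, and DES and LMOD1 were called higher in treated samples (list median 0.55), at 0.196 to 1.29 CPM and 0.267 to 0.920 CPM. The most expressed of the markers, SMTN, was not called and had condition means of 46.0 and 55.5 CPM in untreated and 39.3 to 45.7 CPM in treated samples. The part of these markers in the TAGLN result was not tested. TAGLN2, the most abundant relative, read 488.0 and 429.7 CPM in C1, 479.8 and 430.1 in C2, 532.9 and 573.7 at the lowest dose and 398.0 to 448.2 CPM at the 3 higher doses, with a difference of -0.39 ± 0.12 between them (adjusted p = 0.17 in the fit of all conditions).

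**Figure D5:**
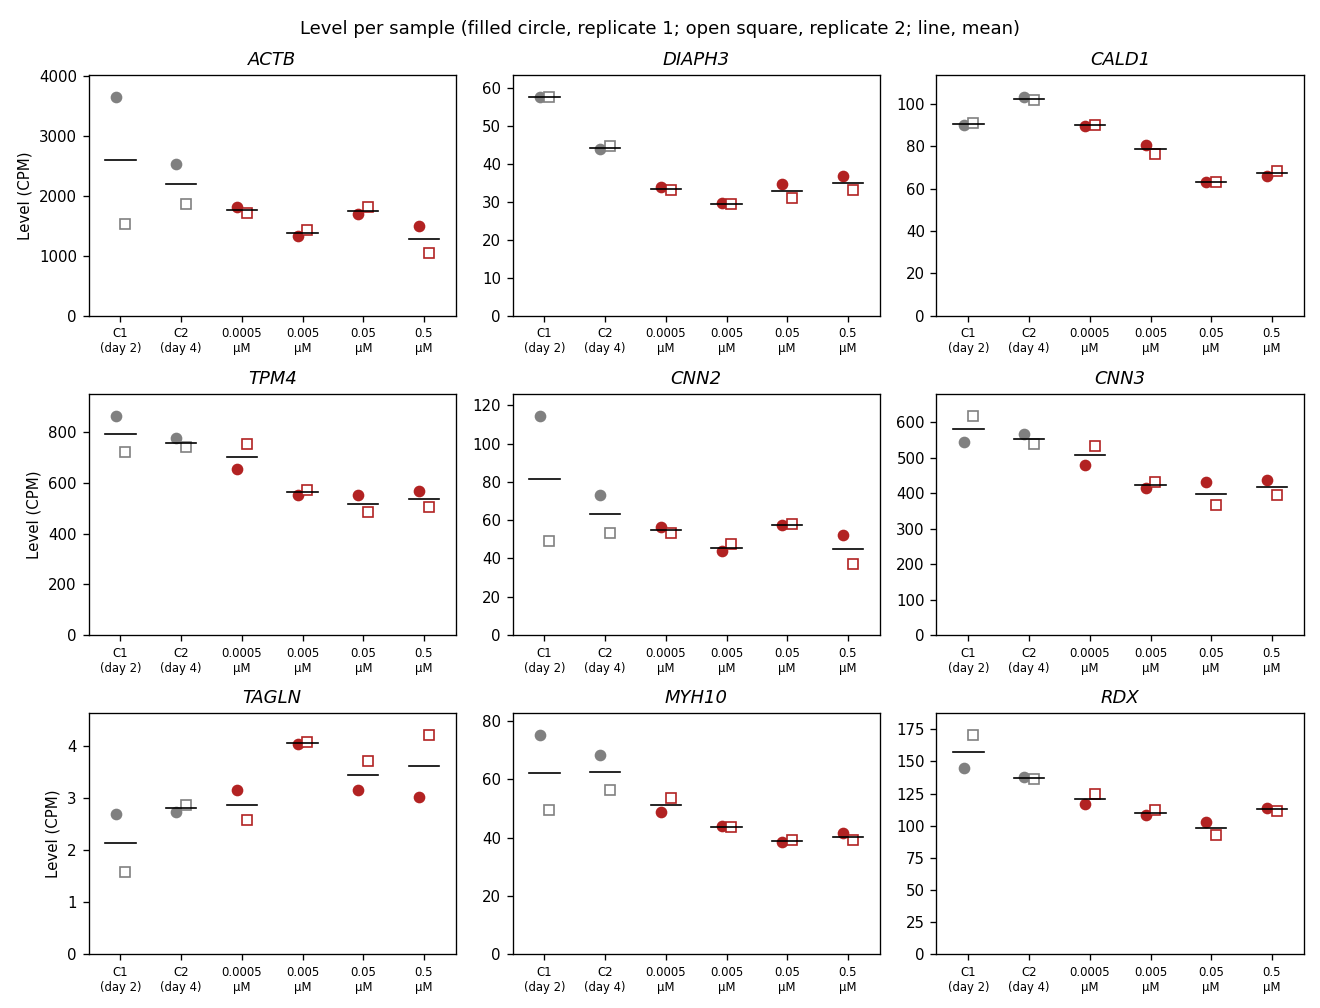
Level in CPM (axis from 0) of 9 genes in each sample of the 6 conditions, untreated in grey and treated in red, with replicate 1 as a filled circle, replicate 2 as an open square and the mean as a line. CALD1, TPM4 and MYH10 are lowest at the 3 higher doses, DIAPH3 is low at every dose, TAGLN is higher at 0.005 µM and above, and ACTB and CNN2 show the wide gap between the C1 samples.

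MYH10 (the heavy chain of non-muscle myosin IIB) was called lower in treated against untreated samples. MYH9 (that of IIA), by far the more abundant, was not called in that contrast, but was called at 0.5 µM in the fit of day 4 samples (-0.53, adjusted p = 0.021). MYH10 read 75.1 and 49.4 CPM in C1, 68.4 and 56.4 CPM in C2, 48.7 and 53.4 at 0.0005 µM, 43.9 and 43.6 at 0.005 µM, 38.5 and 39.0 at 0.05 µM, and 41.5 and 39.0 at 0.5 µM. All samples of the 3 higher doses lay below all untreated samples, while the lowest dose overlapped C1 replicate 2. Treated against untreated samples gave -0.52 ± 0.12 (SE, adjusted p = 0.0043), kept in all 20 alternatives. At 0.05 µM the change against C2 was -0.69 ± 0.18 (adjusted p = 0.039, lost without any 1 of the 10 day 4 samples, at up to 0.27, and with the filter at a mean of 1 CPM, at 0.055), and at 0.5 µM -0.63 ± 0.18 (adjusted p = 0.062). MYH9 read 1582 and 549.9 CPM in C1, 926.2 and 710.1 CPM in C2, and 504.4 to 830.8 CPM in treated samples. Its 2 C1 samples spanned all but 1 of the other samples, and its log2 fold change of -0.39 was not called. A test of the difference between the 2 heavy chains was not run.

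Of the light chains, MYL12B read 390.0 and 594.4 CPM in C1, 408.9 and 426.6 CPM in C2 and 356.1 to 587.9 CPM in treated samples, at a log2 fold change of 0.05 that was not called. MYL6, with 16.3% of its exon bases under a gene of the opposite strand, and MYL12A stood at -0.18 and -0.07. ROCK2, a kinase that raises contraction, was called lower. It read 147.6 and 108.3 CPM in C1, 138.2 and 120.7 CPM in C2, and 100.03 to 113.0 CPM with a median of 103.3 in treated samples, with only C1 replicate 2 inside the treated range. The log2 fold change was -0.30 ± 0.09 (SE, adjusted p = 0.025), lost without C1 replicate 1 or C2 replicate 1 (0.084 to 0.10), under either other filter on low counts (0.078 and 0.081), and with GC and length offsets, where it was -0.15 (adjusted p = 0.24). ROCK1, its close relative, read 118.3 to 133.5 CPM in untreated and 105.9 to 116.7 CPM in treated samples, which did not overlap, yet its -0.17 was not called (adjusted p = 0.12). MYLK, the kinase of the light chains, had -0.30 and was not called in the fit of all conditions. In that of day 4 samples MYLK was called lower at 0.0005, 0.005 and 0.5 µM (adjusted p of 0.012, 0.036 and 0.021).

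Among the ERM genes RDX (radixin) was called lower and its relatives were not. RDX read 144.9 and 170.5 CPM in C1, 138.1 and 136.4 CPM in C2, 117.1 and 124.8 at 0.0005 µM, 108.2 and 111.8 at 0.005 µM, 103.2 and 92.7 at 0.05 µM, and 113.8 and 111.8 at 0.5 µM. All treated samples lay below all untreated ones, and the log2 fold change was -0.42 ± 0.10 (SE, adjusted p = 0.0049, kept without any 1 sample but not on day 4 samples alone, at -0.30 and 0.060). At 0.05 µM it was -0.49 ± 0.13 against C2 (adjusted p = 0.043, lost without any 1 of the 10 day 4 samples, at up to 0.21, under either other filter, at 0.074 and 0.13, and with GC and length offsets, at 0.051). In the fit of day 4 samples RDX was called at 0.05 µM (-0.47, adjusted p = 0.0050). MSN (moesin), the most abundant of the 3 per kb of the longest transcript, read 1073 and 595.8 CPM in C1, 949.5 and 777.4 CPM in C2 and 532.9 to 906.6 CPM in treated samples. These overlapped, and its -0.53 at 0.5 µM had an adjusted p of 0.21 in the fit of all conditions and of 0.019 in that of day 4 samples. EZR (ezrin) stood at -0.16 in treated against untreated samples.

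EVL, an Ena/VASP protein that helps filaments lengthen at the cell edge, was called lower at a low level. It read 10.6 and 5.01 CPM in C1, 7.09 and 6.20 CPM in C2, and 3.98 to 6.17 CPM in treated samples, at a log2 fold change of -0.52 ± 0.16 (SE, adjusted p = 0.025). Without C1 replicate 1 it was -0.28 (adjusted p = 0.18). FSCN1 (fascin, which bundles filaments in thin protrusions) read 117.5 and 55.4 CPM in C1, 91.4 and 69.3 CPM in C2 and 51.9 to 84.8 CPM in treated samples. It was not called, at -0.23, nor was ENAH at -0.13.

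Between the untreated samples of day 4 and day 2, 0 of the 49 genes were called by edgeR (0.325% of all genes were called) and 0 by DESeq2, and PFN2 and DIAPH3 had an unadjusted p under 0.05 (4.08%, against 9.996% of all genes). Beside -0.10 with 68.1% below 0 over the genes of at least 8 CPM, the list's median log2 fold change was -0.13 with 37 genes below 0. It turned to 0.12 without C1 replicate 1 and was -0.18 without C1 replicate 2, and 5 and 7 genes were then called (10.2% and 14.3%, against 10.01% and 7.03% of all genes), so the direction of the list between the days rested on which C1 sample was used. Between the 3 higher doses and the lowest, which leaves the untreated samples out of the contrast, 0 genes were called by edgeR (0.293% of all genes), 2 by DESeq2 (4.08%, against 2.93% of all genes with an adjusted p) and 10 had an unadjusted p under 0.05 (20.4%, against 15.8%). The median was -0.21 with 39 genes below 0, beside -0.09 with 69.3% below 0 over the genes of at least 8 CPM. In the fit of day 4 samples alone 5 were called (CALD1, DIAPH2, MYH10, TAGLN2 and TPM4), all lower, where 3.46% of all genes were called lower, and leaving out C1 replicate 1 or 2 alone gave 3 and 4 (6.12% and 8.16%, against 4.93% and 5.16% of all genes).

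Another 72 genes of the same pathway included other actin binding proteins and adhesion links to actin. In treated against untreated samples 60 of these 72 had log2 fold changes below 0, beside 73.9% of the genes of at least 8 CPM. At the 4 doses 0, 0, 3 and 3 of 72 were called, all lower, and the medians were -0.09, -0.23, -0.17 and -0.27. The 3 called at 0.05 and at 0.5 µM were 4.17% at each dose. Called lower there were 3.23% and 1.96% of all genes and 5.91% and 3.50% of those of at least 8 CPM. In treated against untreated samples 19 were lower (26.4%, against 11.3% of all genes and 21.1% of those of at least 8 CPM) and 0 higher. VCL (vinculin, which couples actin to adhesion sites) fell by 0.60 on the log2 scale (adjusted p = 0.00049), PDLIM5 (which binds the filament crosslinker alpha-actinin) fell by 0.58 (adjusted p = 0.0012), and SRF, the factor of the CArG box, fell by 0.64 (adjusted p = 0.0047). ANLN (anillin) and CIT (citron kinase), which act with actin in cell division, fell by 0.62 and 0.58, and ACTN4, an alpha-actinin, fell by 0.49. The exchange factors ARHGEF1, ARHGEF11 and ARHGEF12 fell by 0.71, 0.53 and 0.39. ARHGEF2, another exchange factor, was not called, at condition means of 113 and 108 CPM in untreated and 107 to 138 CPM in treated samples. By slope, RHOB fell by 0.22 per 10-fold step (adjusted p = 0.023), MYO1E fell by 0.16 and CIT rose by 0.20 among treated samples. A list of 10 immediate early and heat shock genes, which respond to handling, was called lower for 7, 6 and 8 genes at the 3 higher doses. Of all genes 0.776%, 3.23% and 1.96% were called lower there. Summed levels were 2061 to 2685 CPM in C2, 1380 to 1996 CPM in C1 and 1129 to 1756 CPM at those doses. So C2 stood above C1 on this list and C1 overlapped the treated samples. EGR1 of that list went the other way, called higher at 0.05 and 0.5 µM with means of 489 and 301 CPM beside 119 CPM in C2. The part of these genes in the results above was not tested.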

How the data were processed

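The authors released cells from Matrigel, extracted RNA and sequenced it in pairs. Reads were trimmed with Trimmomatic 0.39 and aligned with STAR 2.7.5 to GRCh37, unique alignments were kept, and those in exons were counted. The deposited values are whole-number counts per gene, without normalization or pooling, and 12 of 12 single-sample files were identical to the table of the series. Whether counting used strand is not given in the sources used here, and replicates are called biological without their culture days, so p-values measure the spread between these samples.

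The genes and lists were chosen with earlier results of these data known. Symbols, lengths, GC content and exon overlaps came from GENCODE release 44 on GRCh37, which held 55665 of the 63568 counted identifiers. Counts were TMM scaled, kept by filterByExpr with 6 conditions (49 of 50 genes passed, MYH14 did not) and tested two-sided with edgeR 4.0.16 (glmQLFit robust, glmQLFTest) in R 4.3.3, with Benjamini-Hochberg adjustment over 25249 genes. All 12 samples shared 1 fit, except that the dose slope used 8 and treated against untreated had 1 term. The common biological coefficient of variation was 15.6%. Values in every sample are given for genes called in any of 8 comparisons and for the most expressed gene of each role per kilobase; the longest transcript was used as length, and the union of exons as the alternative. The procedure was tested on simulated counts. Alternatives were DESeq2 1.42.0, RLE scaling, 2 other filters, no robust estimation, a replicate block, only the samples of a comparison, GC and length offsets (loess span 0.3), each sample left out, and, added later, day 4 samples only.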

Additional observations from a re-analysis of the deposited data

Results flagged for a closer look

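By Dixon's test on the 4 untreated and the 8 treated samples of each described gene, 2 of 46 groups held a sample far from the others, and chance gives about 1 in 20. LIMK2 was at 24.5 CPM in C1 replicate 1, where the nearest untreated sample had 17.0 CPM. TAGLN was at 1.58 CPM in C1 replicate 2, where the nearest untreated sample had 2.697 CPM. Both samples are of C1, whose replicates differed most, and both genes lost their call in treated against untreated samples without the sample named.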

How the results depend on the processing

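Counts of called genes moved by over 1.5 times in these settings. At 0.0005 µM (0 called) there was 1 without a filter, 4 with only the samples of the comparison and 4 with day 4 samples only. At 0.005 µM (1 called) there were 2 with DESeq2, 2 without a filter, 9 with only the samples of the comparison, 3 with GC and length offsets and 6 with day 4 samples only. At 0.05 µM (3 called) there were 7 with DESeq2, 1 with a filter at a mean of 1 CPM and 7 with day 4 samples only. At 0.5 µM (1 called) there were 3 with DESeq2, 6 without a filter, 2 with a replicate block, 4 with only the samples of the comparison, 3 with GC and length offsets and 14 with day 4 samples only. The slope (2 called) gave 5 with DESeq2 and 0 with a replicate block. The 3 higher doses against the lowest (0 called) gave 2 with DESeq2, 5 with only the samples of the comparison and 5 with day 4 samples only. Treated against untreated (15 called) gave 6 with a filter at a mean of 1 CPM and 6 with day 4 samples only. The cause was not tested.

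With 1 sample left out, the counts ran from 0 to 4, 0 to 7, 0 to 7 and 0 to 14 at the 4 doses, from 0 to 7 between the days, from 0 to 2 for the slope, from 0 to 4 for the higher doses against the lowest and from 6 to 18 for treated against untreated. The list's medians ran from -0.12 to 0.05, -0.36 to -0.17, -0.25 to -0.11, -0.37 to -0.18, -0.19 to 0.12, -0.08 to -0.03, -0.25 to -0.16 and -0.29 to -0.15 in the same order. Where a condition kept 1 sample, it was taken to vary like the others. The share of all genes called also moved with the sample left out, so the ranges of counts are not read as particular to the list. No called gene changed direction under any alternative run.

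Same-numbered samples deviated together in some pairs of conditions and not in others (correlations from -0.58 to 0.57, over 0.1 in 7 of 15 pairs), so the numbers were not taken to pair the samples, and the replicate block moved only the counts given above by over 1.5 times. With the block DIAPH2 (adjusted p = 0.069) and CALD1 (0.079) were not called by slope, nor TAGLN (0.053) in treated against untreated samples. TAGLN, CNN1, EVL and MYH14 had the fewest counts, and each condition had 2 samples.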
